A study of Danio rerio with 2 samples.

Results

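The genes described here are the lysosomal proteases, the proton pump that acidifies the lysosome and a few lysosomal membrane and enzyme genes of the zebrafish. They were chosen by a naming rule, which was set with earlier results of these data known. The rule takes every gene whose name begins with atp6v, is cts with 1 further letter, or begins with lamp and a digit. It also takes lgmn, psap, grna, grnb, gba, hexa and hexb. Of the 27931 genes in the deposited table, 44 were found this way. They were read in single GFP-positive cells of Tg(-2.3 etv2:GFP)zf372 embryos, in which etv2 regulatory sequence drives GFP, so that only cells in which this reporter was active were sampled. The labels give no further treatment or mutation. Embryos were pooled at the 15 to 18 somite stage (15-18ss) and at the 20 somite stage (20ss), and 48 cells of each stage were captured with the Fluidigm C1 system. Each stage is 1 sample. The sample titles carry different dates, whose meaning is not stated, and per the methods each cell suspension was loaded on a chip. Stage, date and chip therefore cannot be told apart, no p-value is given, and every difference describes these 96 cells only.

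The lysosome is the acidic compartment in which cells break down material taken up by phagocytosis and endocytosis. Its acidity comes from the vacuolar proton pump, which has a cytosolic V1 sector that hydrolyses ATP and a membrane V0 sector that carries protons. Cathepsins are proteases that work in this acid, most of them with a cysteine at the active site and cathepsin D with aspartates. Legumain cleaves after asparagine and processes cathepsins. Macrophages are known for a large lysosomal system, and venous endothelial cells of fish for endocytosis.

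The study clustered the cells into 8 populations. Over the 15-18ss and 20ss samples these held 2 and 3 erythrocytes, 6 and 4 epithelial cells, 14 and 14 tailbud cells, 8 and 6 endothelial progenitor cells (EPC), 4 and 4 venous cells, 10 and 3 arterial cells, 2 and 5 cells of a further endothelial population (EC2), and 2 and 9 macrophages. EPC, venous, arterial and EC2 cells together are called endothelial (24 and 18 cells). The name tailbud follows the study, and this population was mixed. Per cell, the mean log2(TPM + 1) of the 5 matched tailbud markers had a median of 0.10 at 15-18ss and 0.22 at 20ss. The highest cells reached 10.4 and 7.57. Since the populations were built from the transcripts of the same cells, a population set against the others is not an independent test of any gene. All 5 macrophage marker genes that could be matched were higher in macrophages than in endothelial cells, by 5.79 (mpeg1) to 10.43 (spi1b), and all 7 matched endothelial markers were lower. The neutrophil gene lyz was listed at 0 in all cells. Of 6 erythrocyte markers 1 was higher in macrophages (hbae1.1, by 2.44). Of 5 matched tailbud markers 4 were at 0 in every macrophage, and none of the 5 matched epidermal markers was higher.

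Values are in transcripts per 1000000 transcripts (TPM), which are scaled to transcript length, so levels of different genes can be compared. A level is the mean of log2(TPM + 1) over the cells of a stage, averaged over the stages with equal weight, and a difference is the macrophage level minus the endothelial level. A gene entered the comparison when it was above 1 TPM, called detected here, in at least 10 of the 96 cells. It was called higher or lower when the averaged difference reached 1 and had the same sign at both stages. TPM keeps no read depth, and a value of 0 does not show that the transcript was absent. Genes listed near 0 have differences that the added 1 TPM understates. A pair of arterial cells of 15-18ss had nearly the same values for many members, such as 5509 and 5516 TPM of ctsla and 556 and 555 TPM of ctsd. They were counted as separate cells, also in the shares of cells, and the reason was not tested.

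Most of the lysosomal genes were higher in macrophages than in endothelial cells. Of the 44 members 33 entered, 24 were called higher (72.7%), 1 was called lower (3.03%) and 8 were not called. Among all 12003 genes that entered, 19.2% were called higher and 17.8% lower by the same rule. The median difference of the 33 members was 2.77 (2.49 at 15-18ss and 3.06 at 20ss), against -0.08 for all genes (-0.36 and 0.05). Members that are detected mainly in macrophages can enter only through them. When genes had to be detected in 10 of the 85 other cells, 30 members entered and 21 of these were called higher, where 18.0% of all genes were. Leaving out the first of the 2 macrophages of 15-18ss ended the calls of atp6v1h, ctsk and hexa, and leaving out the second ended those of atp6v1c1b, atp6v1d, atp6v1e1b, ctsh, ctss2.1 and lamp2. Of the 9 later macrophages 1 ended a call when left out, that of hexa. On the log2 of the mean TPM, in place of the mean of log2 values, 16 members were called higher, where 11.2% of all genes were.

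**Figure D1:**
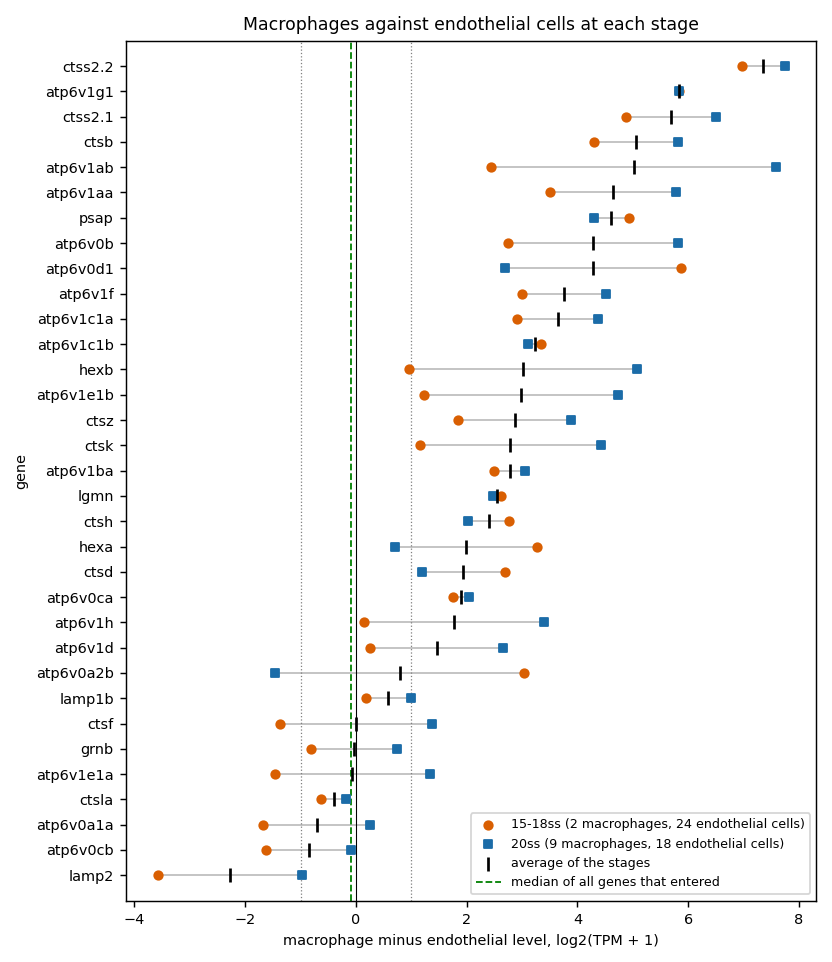
Macrophage minus endothelial level for each of the 33 members that entered, on the log2(TPM + 1) scale. Circles are 15-18ss (2 macrophages, 24 endothelial cells), squares 20ss (9 and 18) and bars the average; the dashed line is the median of all genes (-0.08) and the dotted lines mark -1 and 1. The members lie between 7.36 (ctss2.2) and -2.27 (lamp2).

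Across the 8 populations, 23 of the 33 members had their highest level in macrophages. The share of all genes highest in macrophages was not counted, so this number has no background beside it. The remaining members were highest in EC2 (4), arterial (3), venous (2) or epithelial cells (1). A macrophage had a median of 26 of the 44 members detected (range 23 to 30 over 11 cells), an endothelial cell 15 (range 7 to 26 over 42 cells), so the ranges overlapped. The number of all genes detected per cell, a measure that moves with read depth and RNA content, had a median of 5918 in macrophages and 5356.5 in endothelial cells, and its part in the difference was not tested. In all 11 macrophages 13 members were detected, and in all 42 endothelial cells only ctsla was. Detection in every cell is reached less easily in 42 cells than in 11, and the share of all genes was not counted. In endothelial cells atp6v0ca and lamp2 were detected in 39 of 42, psap in 37 and ctsd in 36.

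**Figure D2:**
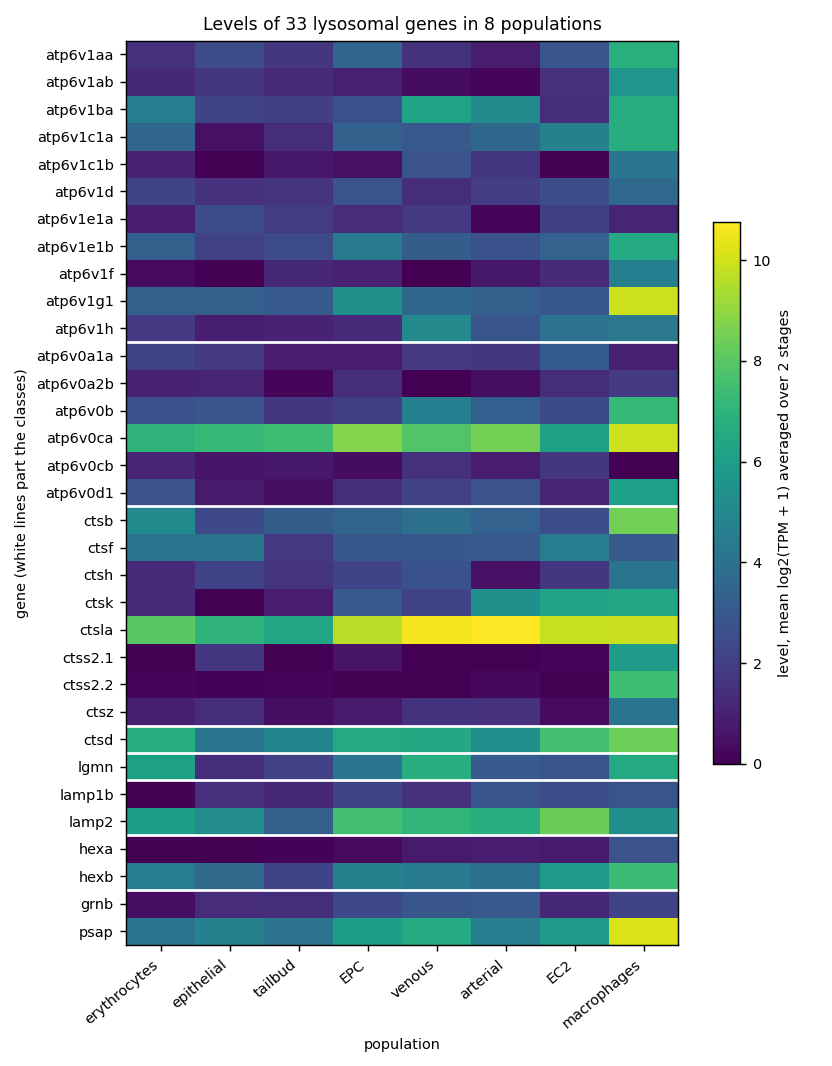
Levels, as mean log2(TPM + 1) averaged over the stages, of the 33 members in the 8 populations, with white lines between the classes V1, V0, cysteine cathepsins, ctsd, lgmn, lamp genes, hexosaminidases and precursors. The macrophage column is brightest for 23 genes, whereas ctsla is bright throughout, from 6.43 in tailbud to 10.76 in arterial cells.

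Nearly all genes of the V1 sector that entered were called higher in macrophages. Of its 13 members 11 entered and 10 were called higher, where 19.2% of all genes were, and the median difference was 3.23. The highest V1 level was that of atp6v1g1, a subunit of the peripheral stalk. Its TPM was 757 and 1383 in the 2 macrophages of 15-18ss, and 282, 1081 and 1685 (lowest, median and highest) in the 9 of 20ss. In endothelial cells the same 3 values were 0, 19.2 and 403 at 15-18ss and 0, 20.9 and 815 at 20ss. Every macrophage lay above the endothelial median, and at 15-18ss the groups did not overlap. The difference was 5.84 at 15-18ss and 5.83 at 20ss. Among the other populations atp6v1g1 was highest in EPC (level 5.34) and between 2.92 and 3.62 in the rest.

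The catalytic subunit A of the pump is encoded by the pair atp6v1aa and atp6v1ab. The 2 early macrophages held 207 and 73.6 TPM of atp6v1aa, and those of 20ss 8.68, 119 and 841 as lowest, median and highest. In endothelial cells atp6v1aa reached 440 TPM at 15-18ss (median 5.70) and 60.8 at 20ss (median 0). The differences were 3.50 and 5.78. For atp6v1ab the early macrophages held 1.68 and 25.3 TPM and the later ones 29.6, 297 and 744. Its endothelial median was 0 at both stages, with highest cells of 72.8 and 59.2 TPM. The difference of atp6v1ab was 2.45 at 15-18ss and 7.59 at 20ss. Both genes were detected together in 11 of 11 macrophages and in 3 of 42 endothelial cells, of which 15 had atp6v1aa alone and 3 atp6v1ab alone. Where copies are similar in sequence, reads may have been shared between them by the quantification, and the split within a pair is uncertain.

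Most remaining V1 subunits were also higher, with smaller differences. The rotor subunit gene atp6v1f had 36.6 and 5.09 TPM in the early macrophages and 0, 101 and 358 in the later ones, where the endothelial medians were 0 with highest cells of 180 and 326 TPM, so single endothelial cells lay within the macrophage range. Its difference was 3.75. The copies of subunit C, atp6v1c1a and atp6v1c1b, had differences of 3.64 and 3.23, and both were detected in 8 of 11 macrophages but in 4 of 42 endothelial cells. Differences were 2.98 for atp6v1e1b (peripheral stalk) and 2.77 for atp6v1ba (subunit B, which shares the nucleotide sites with A). They were 1.76 for atp6v1h (a regulatory subunit) and 1.46 for atp6v1d (rotor), but at 15-18ss only 0.14 and 0.26. Both of these calls were lost at 15-18ss alone and with a pseudocount of 10 TPM. The level of atp6v1h was higher in venous cells (5.06) than in macrophages (4.27). The second copy of subunit E, atp6v1e1a, was the V1 gene that was not called. It was at 0 in both early macrophages and at 0, 0.47 and 90.8 TPM in the later ones, and its difference changed from -1.46 to 1.33 between the stages. It was detected in 4 of 11 macrophages and 11 of 42 endothelial cells, whereas atp6v1e1b was detected in 10 and 27.

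The V0 sector was divided. Of 8 members 6 entered and 3 were called higher, where 19.2% of all genes were, and the median difference was 1.34. The proteolipid gene atp6v0ca, part of the ring through which protons pass, had the highest level of any pump gene. It held 288 and 2061 TPM in the early macrophages and 543, 1204 and 4007 in the later ones. Endothelial cells held 0, 430.1 and 1780.1 TPM at 15-18ss and 0, 520.3 and 1102 at 20ss. Values overlapped widely, and the difference was 1.90. This gene was also high outside blood and vessels, with levels of 7.20 in epithelial and 7.44 in tailbud cells. Its paralogue atp6v0cb was at 0 in all 11 macrophages and was detected in 6 of 42 endothelial cells, all at 15-18ss, with a difference of -0.86.

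The second proteolipid gene, atp6v0b, held 99.3 and 50.2 TPM in the early macrophages and 119.5, 385 and 732 in the later ones. The endothelial values were 0, 8.66 and 360.2 at 15-18ss and 0, 0.91 and 211 at 20ss. The difference was 2.75 and then 5.82, and at 15-18ss the highest endothelial cell lay above both macrophages. For atp6v0d1, which couples the V0 sector to the rotor, the early macrophages held 63.5 and 260.0 TPM, and the later ones 0.81, 60.1 and 215. Its endothelial median was 0 at both stages, although single cells reached 231 and 261 TPM. The difference was 5.87 at 15-18ss and 2.70 at 20ss.

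Subunit a, the large membrane subunit that sets where the pump is placed, was not called in either copy that entered. The entering copies atp6v0a1a and atp6v0a2b were both undetected in 8 of 11 macrophages, and their differences changed sign between the stages. In atp6v0a1a the early macrophages held 0 and 1.88 TPM and the later ones 0, 0 and 74.7, against endothelial medians of 0.34 and 0 and highest cells of 318 and 55.0. Its differences were -1.68 and 0.26. Another subunit a gene, tcirg1, lies outside the naming rule and was looked up after these values were seen. It was detected in 2 of 11 macrophages and 7 of 42 endothelial cells, with a difference of -0.10.

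Summed over all pump genes, macrophages carried more pump transcript on average than endothelial cells, and single cells of the groups overlapped. The sums were 1774 to 5179 TPM in the 2 early macrophages and 2215 to 8852 (median 5237) in the later ones. Endothelial cells ranged from 204 to 3961 (median 1045) and from 73.1 to 2489 (median 1194). The ratio of the mean sums was 2.90 at 15-18ss, 4.32 at 20ss and 3.61 on average, with 4.82 for V1 and 2.62 for V0. In endothelial cells atp6v0ca made up 43.5% of the sum and atp6v1g1 8.12%, and in macrophages 31.2% and 24.7%. The other populations had mean pump sums from 654 TPM (epithelial) to 1098 TPM (tailbud), and erythrocytes 699 TPM.

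**Figure D3:**
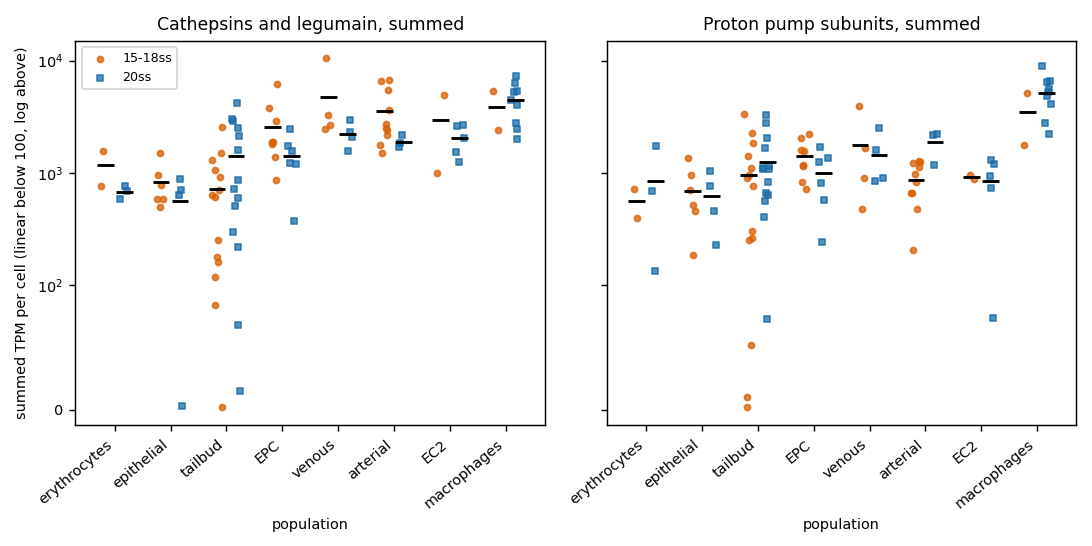
Summed TPM per cell of the cathepsins with legumain (left) and of the proton pump subunits (right) in the 8 populations. Points are cells of 15-18ss (circles) and 20ss (squares), black lines the mean of a stage, and the axis is linear below 100 TPM and logarithmic above. Macrophages have the highest mean for the pump (4327 TPM over the stages), and for both sums their cells overlap those of the endothelial populations.

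Among the cysteine cathepsins, 13 members, 8 entered and 6 were called higher, where 19.2% of all genes were. Of these 6, ctss2.1 and ctss2.2 were detected in only 9 and 3 cells outside macrophages, so they entered only through the macrophages. Cathepsin S is encoded here by the neighbours in name ctss2.1 and ctss2.2, and the mammalian protein is known for antigen processing in phagocytes. The gene ctss2.2 gave the clearest separation of all members. It held 76.2 and 215 TPM in the early macrophages and 96.6, 248 and 646 in the later ones. No endothelial cell exceeded 1.20 TPM, and the medians were 0 at both stages. The difference was 6.96 at 15-18ss and 7.75 at 20ss. It was detected in 11 of 11 macrophages, in 2 of 42 endothelial cells and in 1 of the 43 erythrocytes, epithelial and tailbud cells. The exact 95% interval of the endothelial share of 4.76% runs from 0.582% to 16.2% and covers counting of cells only. It is also the member that stands in the deposited table of population markers, so its pattern is part of what defines the population.

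The copy ctss2.1 was less regular between macrophages. It was at 0 in the first early macrophage and at 1324 TPM in the second, and at 0, 565 and 3438 in the later ones. Endothelial medians were 0, with highest cells of 33.8 and 1.46 TPM. Differences were 4.88 and 6.51. Of 11 macrophages 7 had both copies and 4 had ctss2.2 alone, and no macrophage had ctss2.1 alone.

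Cathepsin B, a broadly expressed endopeptidase and dipeptidase, followed. The early macrophages held 82.5 and 521 TPM of ctsb and the later ones 105, 692 and 1785. Endothelial cells held 0, 4.64 and 521 at 15-18ss, and 0, 6.99 and 447 at 20ss. Macrophages were all above the endothelial medians, and the upper endothelial cells overlapped them. The difference was 4.30 and then 5.81. Outside these groups ctsb was highest in erythrocytes (level 5.11), in which lgmn also had a level of 6.13. Differences of 2.86, 2.79 and 2.39 were found for ctsz (a carboxypeptidase), ctsk (known for collagen breakdown in bone) and ctsh (an aminopeptidase). The call of ctsk rests at 15-18ss on 1 of 2 cells, which held 869 and 0 TPM. That of ctsh rests there on the other cell, with 0 and 305 TPM. For ctsz the mean TPM at 15-18ss was lower in macrophages (15.9) than in endothelial cells (47.6). Single endothelial cells reached 449 TPM of ctsz at 15-18ss and 522 at 20ss, above every macrophage (highest 253). Cathepsin F (ctsf) was not called, with differences of -1.37 and 1.38.

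Cathepsin L, an endopeptidase with a role in many tissues, behaved differently. Its gene ctsla had the highest level of all members in endothelial cells. It held 691 and 1796 TPM in the early macrophages and 159, 1157.5 and 2153 in the later ones. Endothelial cells held 91.9, 1976 and 10232 TPM at 15-18ss and 260.0, 981 and 2268 at 20ss. The groups lay over one another at both stages, and the differences were -0.63 and -0.18. Levels of 10.76 in arterial, 10.56 in venous, 9.88 in macrophages, 9.84 in EC2 and 9.67 in EPC were close, and the arterial, venous and EPC levels differed between the stages by more than any gap between neighbours in this order. Erythrocytes (8.01) and tailbud cells (6.43) had lower levels, with epithelial cells between them.

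With ctsla included, the summed protease transcripts differed less between the groups than most single proteases did. The sum of all cathepsins and legumain averaged 4147 TPM in macrophages and 2603 in endothelial cells, a ratio of 1.59 (1.15 at 15-18ss and 2.40 at 20ss). Without ctsla the ratio was 4.15 (3.70 and 4.56). The gene ctsla made up 71.9% of the endothelial sum and 26.9% of the macrophage sum. In macrophages ctss2.1 (18.9%), ctsb (13.2%), ctsk (12.2%) and ctsd (11.8%) came next, so that 5 genes shared most of the sum. In endothelial cells the next gene was ctsd (11.5%). Protease and pump sums of single cells, on a log2 scale, had a Pearson correlation of 0.39 over 11 macrophages and 0.12 over 42 endothelial cells. These are descriptions over cells that come from 2 samples.

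**Figure D4:**
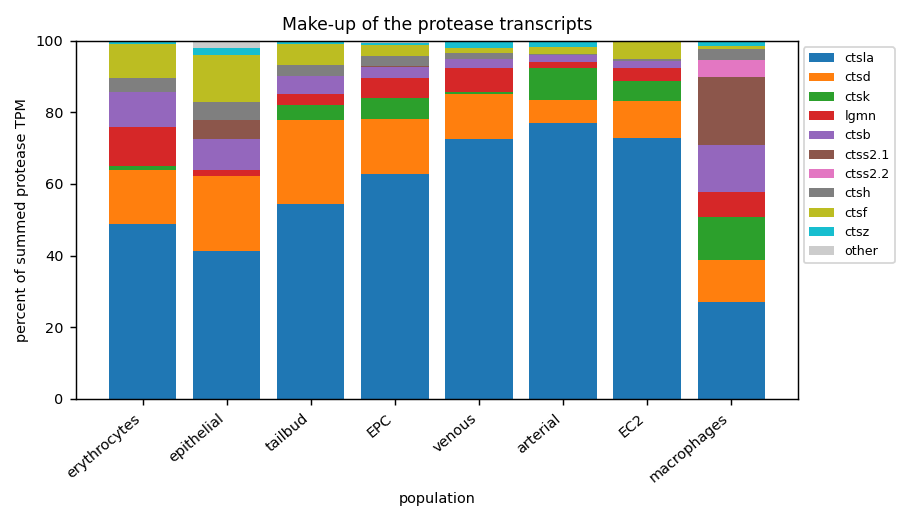
Share of each protease gene in the summed cathepsin and legumain TPM of each population, as percent of the mean sum over both stages. In the 4 endothelial populations ctsla takes 62.9% (EPC) to 77.0% (arterial), and in macrophages 26.9%, with ctss2.1 at 18.9%.

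The aspartic protease cathepsin D and legumain were higher in macrophages with wide overlap. Of ctsd the early macrophages held 228 and 1123 TPM, and the later ones 72.8, 234 and 740.0. Endothelial cells held 0, 122 and 1338 at 15-18ss, and 0, 291 and 1120 at 20ss. It was detected in 11 of 11 macrophages and 36 of 42 endothelial cells. At 20ss the endothelial median was above the macrophage median, although the difference of the mean log2 values was 1.19, after 2.69 at 15-18ss. The call was lost on the log2 of the mean TPM. Legumain (lgmn) held 393 and 20.5 TPM in the early macrophages and 0.38, 90.4 and 1374 in the later ones. Endothelial cells held 0, 28.7 and 359 at 15-18ss, and 0, 40.6 and 427 at 20ss. The difference was 2.62 and 2.47.

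The lamp genes encode heavily glycosylated proteins of the lysosomal membrane, and lamp2 was the 1 member called lower in macrophages. It held 352 and 0 TPM in the early macrophages and 0, 77.6 and 853 in the later ones. Endothelial cells held 0, 424 and 2307 TPM at 15-18ss and 0, 258 and 1095 at 20ss. Most endothelial cells (39 of 42) and macrophages (9 of 11) had it detected, and the ranges overlapped. The difference was -3.58 at 15-18ss and -0.97 at 20ss. It averaged -2.27, became -0.16 without the second early macrophage, and did not reach the threshold at 20ss alone. The highest level of lamp2 was in EC2 (8.35), followed by EPC (7.50), venous (7.05) and arterial cells (6.80). The paralogue lamp1b was not called (0.59). Both were detected in 3 of 11 macrophages and 18 of 42 endothelial cells.

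The hexosaminidase subunits, which remove terminal sugars from gangliosides and glycans, were both called higher. The subunit gene hexb held 130.2 and 42.8 TPM in the early macrophages and 34.0, 449 and 1135 in the later ones, against endothelial values of 0, 54.2 and 575 and of 0, 5.70 and 963. Its difference was 0.95 at 15-18ss and 5.08 at 20ss. The other subunit gene, hexa, was detected in 3 of 11 macrophages and 6 of 42 endothelial cells, each time together with hexb. With only 7 cells detected outside macrophages, hexa entered only through the macrophages. Its differences were 3.27 at 15-18ss, where 1 of 2 macrophages held 441 TPM, and 0.70 at 20ss. Without that macrophage the averaged difference was -0.21.

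Prosaposin, the precursor of the saposins that present lipids to lysosomal enzymes, had the highest macrophage level of all members (10.18). The early macrophages held 553 and 1643 TPM of psap and the later ones 839.6, 1392 and 2684. Endothelial cells held 0, 52.2 and 806 at 15-18ss, and 0, 116 and 1428 at 20ss. Endothelial cells reached into the macrophage range only at their upper end, and the difference was 4.93 and 4.29. Granulin precursors are secreted and also reach the lysosome. The granulin gene grna did not enter, since it was detected in only 8 cells, all of them macrophages, with 0, 10.2 and 57.4 TPM at 20ss. In endothelial cells it was at 0 in 42 of 42, which allows a share of up to 7.14% of cells. Its paralogue grnb was detected in 8 of 11 macrophages and 27 of 42 endothelial cells, with differences of -0.80 and 0.75.

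The endothelial populations also differed among themselves. For the first 4 genes named here the range between them was wider than the difference between macrophages and endothelial cells. These genes were picked for the widest ranges, and a range takes the extremes of several population means, so it is not measured alike with that difference. The range of level over EPC, venous, arterial and EC2 cells was widest for atp6v1ba (4.84), followed by lgmn (3.99), ctsk (3.99), atp6v1h (3.73) and atp6v1c1b (2.76). For atp6v1ba the venous cells held 0, 68.9 and 419 TPM at 15-18ss (lowest, median and highest of 4 cells) and 22.5, 271 and 860.1 at 20ss, whereas EC2 cells held 0 and 0.92 at 15-18ss and 0, 4.17 and 30.8 at 20ss. The venous level was 6.23, the arterial level 5.14, the EPC level 2.72 and the EC2 level 1.39. This order held at both stages, and the gap between venous and arterial cells was within the movement of the venous level between stages.

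For lgmn venous cells were also highest, with 7 of 8 cells detected against 2 of 7 EC2 cells. The venous cells held 0, 143 and 342 TPM at 15-18ss and 75.5, 380.1 and 427 at 20ss. Venous levels of 5.54 and 8.03 stood above the EPC levels of 3.94 and 4.52, and the arterial levels were 3.18 and 2.97. The averaged venous level of 6.78 was near the macrophage level of 6.60. For atp6v1h the venous level was 5.06, and the EC2 level was 7.70 at 15-18ss (2 cells) and 0.51 at 20ss (5 cells), so its order among the populations differed between the stages. The copy atp6v1c1b was detected in 3 of 8 venous, 2 of 13 arterial and 1 of 14 EPC cells and in no EC2 cell.

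The gene ctsk had another order, with EC2 at 6.21, arterial at 5.41, EPC at 3.07 and venous at 2.23. EC2 cells held 177 and 209 TPM at 15-18ss and 0, 88.9 and 243 at 20ss. The 3 arterial cells of 20ss held 185, 199 and 757 TPM, but of the 10 arterial cells of 15-18ss only 3 had it detected, and the arterial level moved from 2.56 to 8.25. Venous cells had it detected in 3 of 8, with a highest value of 63.1 TPM.

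**Figure D5:**
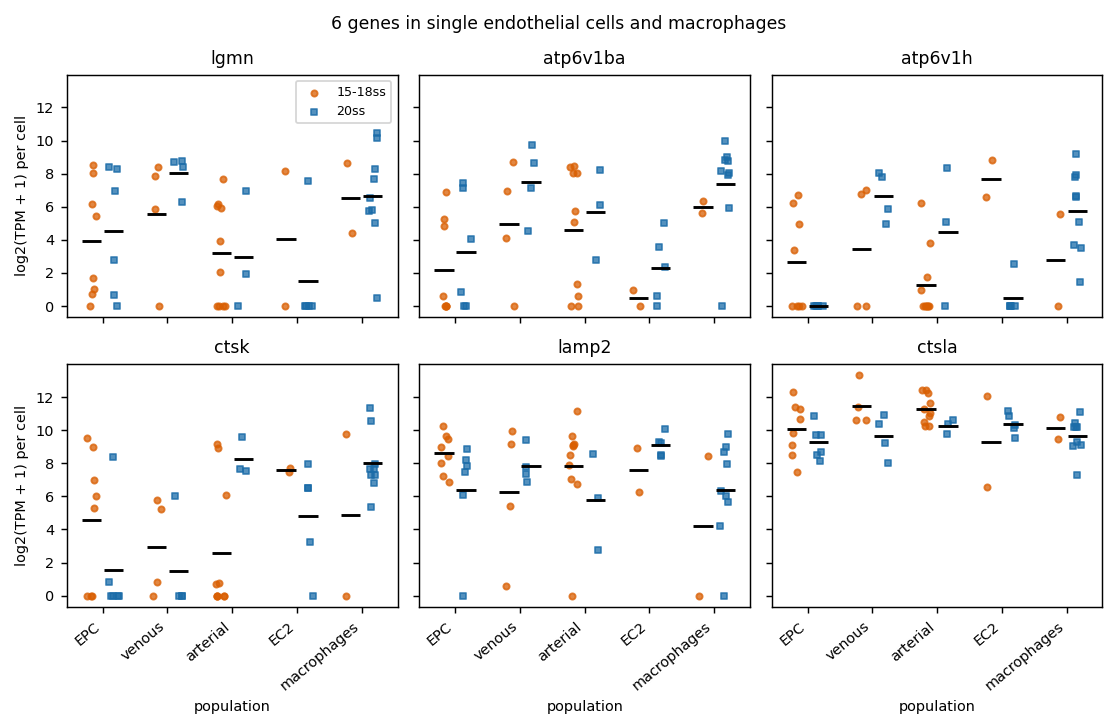
log2(TPM + 1) of 6 genes in single EPC, venous, arterial, EC2 and macrophage cells at 15-18ss (circles) and 20ss (squares), with the mean of each stage as a black line. Venous cells are high for lgmn (7 of 8 cells detected) and atp6v1ba (7 of 8), EC2 cells for ctsk (6 of 7), and ctsla is detected in every cell shown.

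Between the stages more of these genes were lower than higher in endothelial cells at 20ss. Of the 33 members 3 were higher by at least 1 (9.09%, against 7.67% of all genes) and 7 were lower by at least 1 (21.2%, against 9.36% of all genes), with a median of -0.13 against -0.03 for all genes. Higher were atp6v0d1 (1.29), psap (1.19) and atp6v0a2b (1.01). The lower members were lamp1b (-2.81), atp6v1aa (-2.51), hexb (-1.82), ctsf (-1.71), atp6v0cb (-1.55), atp6v0a1a (-1.49) and ctsz (-1.10). In macrophages the median change of the members was 0.94, against 0.23 for all genes, and 23 of 33 were above 0. The earlier value rests on 2 cells, and the mix of endothelial populations also differed between the stages.

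Further lysosomal genes outside the naming rule were read from a list of 66 names, of which 50 were matched and 41 entered. By the same call 19.2% of all 12003 genes were higher and 17.8% lower, with a median difference of -0.08. Of the 41 list genes 19 were higher and 1 was lower, and their median difference was 1.36. No count with the filter on cells outside macrophages is given for this list. Some of its genes may therefore have entered only through the macrophages. The largest differences were those of asah1b (7.63, the acid ceramidase), atp6ap2 (4.44, an accessory protein of the pump) and gm2a (4.41, the ganglioside activator that works with hexosaminidase). The gene asah1b was detected in 11 of 11 macrophages and 1 of 42 endothelial cells. The lowest values were those of laptm4a (-1.83, with opposite signs at the stages), laptm4b (-1.70, called lower) and neu1 (-0.56, not called), the first of which are lysosomal membrane protein genes and the last a sialidase gene. A transcription factor of lysosomal genes in mammals, tfeb, was detected in 11 of 11 macrophages and 14 of 42 endothelial cells, with a difference of 2.69 that was chosen for mention after it was seen.

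The 11 members that did not enter were few in cells. Listed at 0 in all 96 cells were atp6v1c2, ctsl.1, ctslb, ctsll and ctss1, which allows a share of up to 3.13% of cells with the transcript above 1 TPM. The remaining ones were detected in 9 cells (ctso), 8 (grna), 7 (atp6v1b2), 2 (atp6v0a2a) and 1 (atp6v0a1b and lamp3 each). Further names that meet the rule, among them ctsa, ctsc and lamp1, and the name gba were not analysed here. These limits cover counting of cells only.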

How the data were processed

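The authors deposited TPM values of 27931 Ensembl gene identifiers in 96 cells. Per the methods they came from paired-end reads quantified with kallisto in AltAnalyze against Ensembl release 72 of Zv9. The kallisto version is not given in the sources used here. TPM sum to 1000000 in each cell, so a gain in some genes lowers others, and depth is unknown. Populations came from the deposited grouping.

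All 44 members were named by a gene name table. Genes of the other lists were named from the deposited marker table and then from the gene name table. For 20 of 21 pump genes the copy letter came from the study's supplementary name table. An identifier named atp6v1e1a there but mogat3b in the name table was left out. The members and lists were chosen with earlier results of these data known. Levels, differences and calls were computed with Python 3.11.15 and pandas 2.3.3 (pseudocount 1 TPM, more than 1 TPM in at least 10 cells, log2 difference of at least 1). The difference and the calls were tested on simulated data of genes with higher mean TPM, set changes and no values of 0. That test does not cover genes that are at 0 in many cells. Shares of cells have exact Clopper-Pearson intervals, and a count of 0 an upper limit of 3 cells.

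Genes described in full were the 10 highest and 5 lowest differences, the highest level of each class and the 5 widest endothelial ranges. The pathway list gave its 3 largest differences each way, and paralogues were described together. Alternatives changed the pseudocount, filter, averaging, stages, weights, centring and, after the data had been seen, the cells used for filtering, the marker-table genes and each macrophage. A planned search of promoters was not run, as no promoter sequence was used here.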

Additional observations from a re-analysis of the deposited data

Results flagged for a closer look

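For 5 members the macrophage minus endothelial difference had opposite signs at the stages. The shift from 15-18ss to 20ss was 2.78 for atp6v1e1a, 1.94 for atp6v0a1a, -4.49 for atp6v0a2b, 2.75 for ctsf and 1.55 for grnb. The earlier side rests on 2 macrophages, both of which were at 0 for atp6v1e1a, and 1 of which held 137 TPM of atp6v0a2b while the other was at 0. These differences between stages were not tested, since each stage is 1 sample.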

How the results depend on the processing

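All 24 higher calls rest on log2 values averaged over cells. On the log2 of the mean TPM 16 members were called higher (11.2% of all genes were higher and 37.4% lower there, and the median of all genes shifted to -0.79), and the calls of atp6v1ba, atp6v1c1b, atp6v1d, atp6v1h, atp6v0b, ctsz, ctsd, lamp2 and hexb were lost. The other alternatives gave 20 to 25 higher members. Where all genes were counted as well, 10.6% (pseudocount of 10 TPM) to 24.9% (15-18ss alone) of them were higher. With a pseudocount of 0.1 TPM the 1 lower member became 2, where 24.3% of all genes were lower. At 15-18ss alone it became 5, where 29.4% of all genes were lower. It became 2 with endothelial populations weighted equally, 0 without the second early macrophage and 2 without 1 of the later macrophages. For these last settings the share of all genes is not given. The median member difference was 3.42 with a pseudocount of 0.1 TPM, 1.61 with 10 TPM, 1.92 with no filter and 1.36 on the log2 of the mean TPM. The protease ratio was 4.15 without ctsla. When single macrophages were left out, hexa was the only called member whose averaged difference changed sign. It went from 1.99 to -0.21 without the first early macrophage. No paired analysis was possible because each stage is 1 sample with no replicate. The unknown read depth and 2 early macrophages limit the low genes most.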
